A study of Mus musculus with 16 samples.

Results

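Transcripts of 78 nuclear genes that encode subunits of the respiratory chain and the ATP synthase were compared in the hearts of mice that differed in a clock gene and in diet. The genes were taken by symbol (Nduf followed by a, b, c, s or v and a digit, Sdha to Sdhd, Uqcr, Cox4 to Cox8, and Atp5, without pseudogenes) and make up 78 of the 22180 genes with a probe set of their own. By symbol, 33 belong to complex I, 4 to complex II, 7 to complex III, 17 to complex IV and 17 to the ATP synthase, complex V. Ndufa4 carries a complex I name, although its protein is known as a subunit of complex IV. A single probe set stood for 69 of the genes, and 9 had 2 probe sets, which were averaged. Symbols that appear only on probe sets shared with other genes (8, among them Cox6c and Uqcr10) were not used except in 1 other setting, and the mitochondrially encoded subunits are not analysed here.

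All 16 mice were of the C57Bl/6J strain, and RNA from the myocardium of each (500 ng of total RNA) was hybridised to 1 Affymetrix array. The 4 groups, of 4 mice each, were wild-type mice on standard chow (WT SC), wild-type mice on a high-fat diet (WT HFD), mice labelled transgenic Clock delta 19/delta 19 on standard chow (Clock SC) and the same genotype on the high-fat diet (Clock HFD). Every mouse was 32 weeks old, had been on its diet for 24 weeks and was sampled 7 hours after lights on. The Clock delta 19 allele is carried in all tissues, not in the heart alone, and a single time of day cannot tell a shifted rhythm from a flattened one. The design asks what the mutation and the diet each do to heart transcripts, and whether the effect of one depends on the other.

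The respiratory chain passes electrons from NADH (at complex I) and from succinate (at complex II) through complex III to complex IV, which reduces oxygen. Proton pumping by complexes I, III and IV drives the ATP synthase. The heart depends on this chain for nearly all of its ATP and is packed with mitochondria. Most complexes mix subunits from the mitochondrial genome with subunits from nuclear genes, and complex IV has several subunits with a heart and skeletal muscle isoform beside a widely expressed one.

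Each deposited value is a log difference from the median of its probe set across the 16 hearts, read here as log2 with positive meaning higher, so they show no abundance and no background and cannot be set against each other between genes as levels. They also cannot show whether a marker of the labelled tissue, or of another cell type, is at or near 0. Array medians lay between -0.00154 and 0.00281 and array SDs between 0.111 and 0.159. Differences between groups are given ± the standard error of a limma fit over all 22180 genes, with Benjamini-Hochberg adjusted p over all of them, and passing means an adjusted p under 0.05. In whole tissue, fewer cells of a type and less RNA per cell cannot be told apart. As a check of the genotype labels, Dbp, a gene that CLOCK switches on, had all 8 Clock hearts below all 8 WT hearts (-2.39 ± 0.19 over both diets, limma adjusted p = 2.03e-06). The transcript of Clock itself was higher in Clock hearts (0.295 over both diets, adjusted p = 0.00664). The position of its probe set relative to the exon the allele loses was not looked up, so this checks nothing.

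Across the 78 subunit genes the differences were small, and 75 of them passed in none of the 7 comparisons. The 3 that did pass are all isoforms of complex IV subunits. Cox7a1, the heart and skeletal muscle isoform of subunit VIIa, rose in Clock hearts. Cox6a1 and Cox6a2, the widely expressed and the heart and muscle isoform of subunit VIa, were both lower on the high-fat diet when the genotypes were averaged.

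On chow, 0 of 78 subunit genes passed between Clock and WT hearts by limma, against 0.491% of all genes. At an unadjusted p under 0.05 there were 11, all higher in Clock hearts, which is 14.1% of the set against 9.77% of all genes. With the high-fat diet 1 of 78 passed, Cox7a1 (higher), against 1.9% of all genes, 1.13% higher and 0.771% lower, and 14 had an unadjusted p under 0.05 (17.9%, against 13.5%). Over both diets 1 of 78 passed, again Cox7a1, against 3.88% of all genes, 2.44% higher and 1.44% lower, and 21 had an unadjusted p under 0.05 (26.9%, against 16.5%). The shares that passed are thus near or under those of all genes.

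The direction was less even. On chow 64 of 78 genes (82.1%) had a positive Clock minus WT difference, with a median of 0.053, while 49.8% of all genes were positive with a median of -0.00027. Under the high-fat diet it was 57 of 78 (73.1%, median 0.054), while 50.2% of all genes were positive. The genotype difference was positive on both diets for 50 of 78 genes (64.1%), against 30.1% of all genes. The value on chow rested on few hearts: without WT SC replicate 2 the median was 0.030 (52 of 78 positive), and without WT SC replicates 2 and 4 it was 0.0042 (41 of 78 positive). Without those 2 hearts the count positive on both diets was 28 of 78 (35.9%, against 26.3% of all genes). These values left out low WT hearts only and kept Clock SC replicate 4, where the mean of the 78 genes was -0.054. That mean was -0.101 and -0.055 in WT SC replicates 2 and 4, and 0.0079 and -0.00053 in WT SC replicates 1 and 3. In Clock SC replicates 1, 2 and 3 it was 0.021, 0.040 and 0.057. For hearts on the high-fat diet, leaving out each heart in turn gave medians from 0.041 to 0.064 and between 54 and 64 positive genes.

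**Figure D1:**
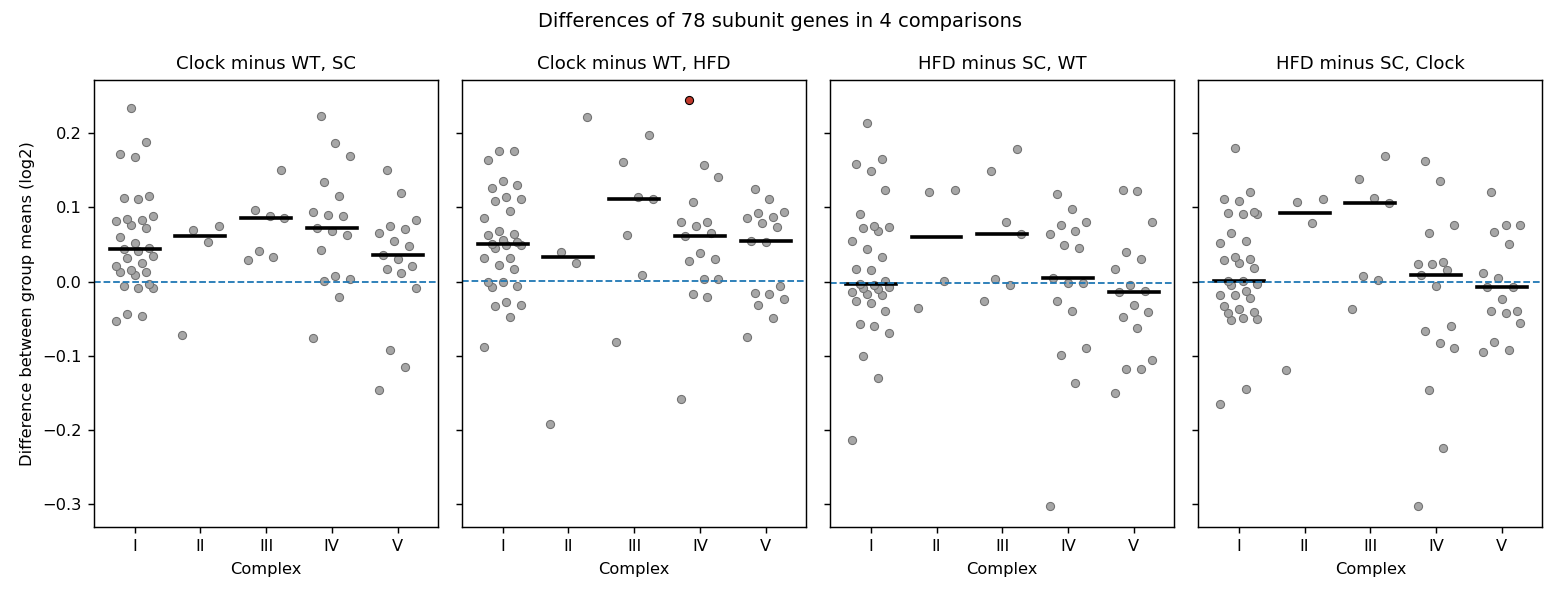
Differences between group means (log2, vertical axis) of the 78 subunit genes by complex, 1 point per gene, in 4 comparisons of groups of 4 hearts. Black bars are medians of a complex, the dashed line is the median of all 22180 genes, and the filled red point is the 1 gene that passed (Cox7a1); the medians of all 5 complexes lie above the dashed line in both genotype comparisons.

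By complex, the median Clock minus WT difference was 0.086 for complex III on chow and 0.11 on the high-fat diet. The chow value moved with single hearts: for WT SC, without replicate 2 it was 0.032, below complex IV (0.053), without replicate 4 it was 0.056, and without both -0.0022, with complex IV at 0.029. Without Clock SC replicate 1 it was 0.058, also below complex IV (0.084). All these chow values kept Clock SC replicate 4, whose complex III mean was -0.109, against 0.021 to 0.055 in the other Clock SC hearts. Without Clock HFD replicate 4 the high-fat value was 0.072. It was 0.045 and 0.051 for complex I, and 0.073 and 0.061 for complex IV. The median of complex II was 0.062 on chow and 0.033 on the high-fat diet, over only 4 genes that ran in opposite directions. The ATP synthase had 0.036 and 0.054, with 13 of 17 and then 10 of 17 genes positive. The differences between complexes were not tested.

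Hearts differed within groups. Counted per heart, 10 of 78 subunit genes lay above their own median in WT SC replicate 2, 24 in WT SC replicate 4 and 23 in Clock SC replicate 4. The other WT SC hearts had 45 and 35, and the other Clock SC hearts 50, 57 and 65. WT HFD hearts had 39, 17, 24 and 33, and Clock HFD hearts 51, 49, 41 and 59, so on the high-fat diet each Clock heart was above each WT heart. Over all genes the share above the median was 47.7% to 53.4% per heart, which is near an even split everywhere.

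The 3 chow hearts with low counts also stood apart in other ways. Not every heart with a low count did: WT HFD replicates 2 and 3, with 17 and 24 genes, had array SDs of 0.125 and 0.133. Their array weights were 1.06 and 0.93. WT SC replicates 2 and 4 had the widest arrays (SD 0.159 and 0.148), and Clock SC replicate 4 (SD 0.141) had the lowest array weight, 0.656, where the others lay between 0.748 and 1.41. The mean of 12 cardiomyocyte markers was -0.11 in WT SC replicate 2, -0.065 in WT SC replicate 4 and -0.105 in Clock SC replicate 4, against 0.0156 to 0.054 in the other 5 chow hearts. In hearts on the high-fat diet the same marker mean ran from -0.085 to -0.0107 in WT hearts and from -0.0046 to 0.075 in Clock hearts. The 3 chow hearts with low subunit counts were thus the 3 lowest chow hearts for these markers too, while within WT HFD the orders differed: replicate 2, lowest for the mean of the 78 genes (-0.046), was highest for the markers (-0.0107). By limma 0 of the 12 passed between genotypes on either diet. On the high-fat diet 11 of the 12 had a positive Clock minus WT difference (median 0.055). There 4 of 12 (33.3%) were higher without overlap, against 8.89% of all genes, 5.09% higher and 3.8% lower. On chow 7 of 12 were positive (median 0.011), and 1 (8.33%) was higher without overlap, against 4.95% of all genes. Over both diets 1, Ryr2, passed (0.17 ± 0.03, limma adjusted p = 0.00698), against 3.88% of all genes. The mean of 12 leukocyte markers was highest of all 16 hearts in WT SC replicate 2 (0.336, with 12 of 12 above their medians) and next highest in Clock SC replicate 4 (0.127, 10 of 12), but it was -0.088 in WT SC replicate 4 (3 of 12). The other hearts ran from -0.22 to 0.076. The erythroid marker Slc4a1 was 0.326 and 0.4 in WT SC replicates 2 and 4, and 0.031 in Clock SC replicate 4. The part of these markers in the subunit values was not tested.

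**Figure D2:**
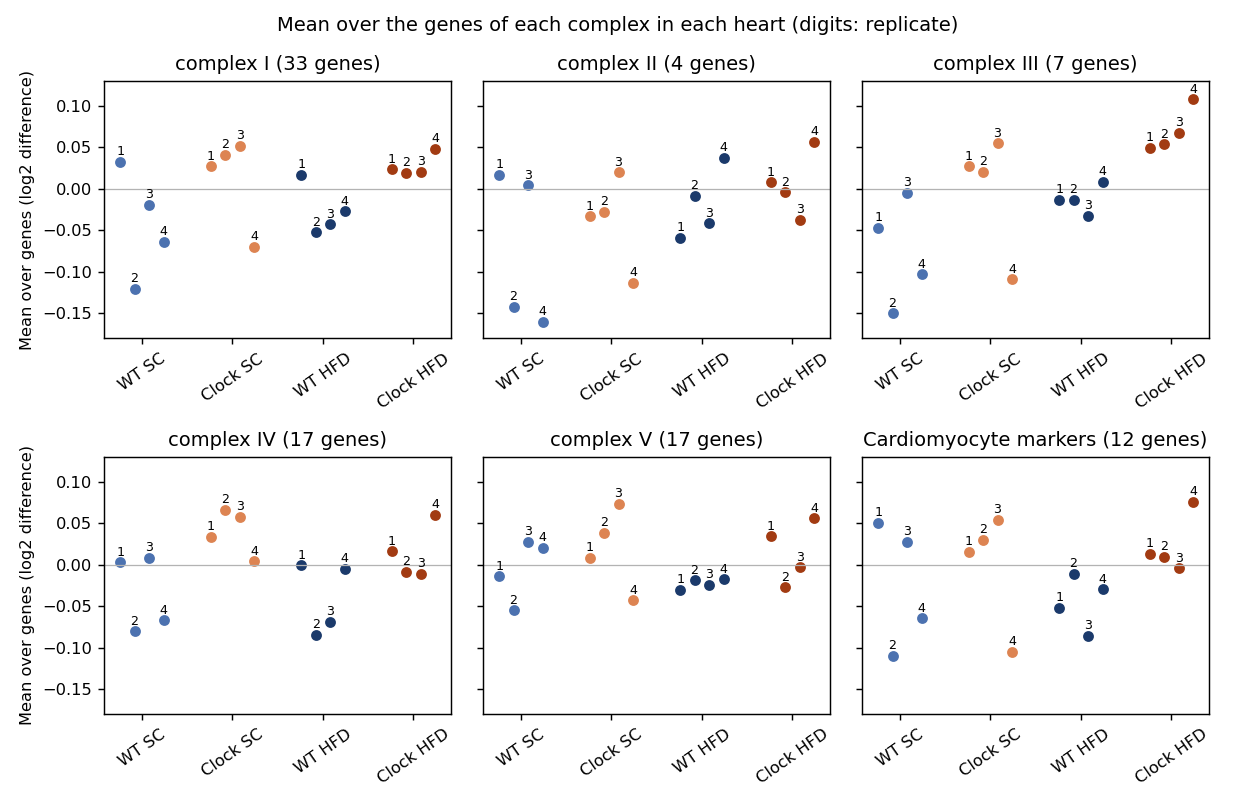
Mean over the genes of each complex (log2 difference from each gene's median, vertical axis) in each of the 16 hearts, with the replicate number beside each point, and the same for 12 cardiomyocyte markers. WT SC replicates 2 and 4 and Clock SC replicate 4 are low for complexes I, II and III and for the cardiomyocyte markers, and the complex III mean of each Clock HFD heart lies above that of every WT heart.

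Cox7a1 encodes the form of subunit VIIa that replaces Cox7a2 in adult heart and muscle. Its values in WT hearts on chow were -0.051, -0.11, -0.034 and -0.15, and on the high-fat diet -0.031, -0.14, -0.065 and -0.087. Its values in Clock hearts were 0.14, 0.16, 0.23 and 0.031 on chow and 0.21, 0.17, 0.18 and 0.088 on the high-fat diet. All 8 Clock hearts were above all 8 WT hearts, which holds in this direction for 0.419% of all genes and in either for 0.73%. The lowest of them was Clock SC replicate 4.

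The difference for Cox7a1 was 0.25 ± 0.05 on the high-fat diet, which is 1.19-fold (limma adjusted p = 0.0122), and 0.23 ± 0.03 over both diets (1.18-fold, adjusted p = 0.00073). On chow it was 0.22 ± 0.05, or 1.17-fold, and just missed the threshold (adjusted p = 0.0516). Without Clock SC replicate 4 the chow difference was 0.26 and passed (adjusted p = 0.022). The difference on the high-fat diet passed in 18 of 18 other settings and the average in 25 of 25. Without WT SC replicates 2 and 4 the chow difference was 0.18 (adjusted p = 0.345). The diet average of Cox7a1 was 0.015 ± 0.034, inside its error.

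The window around the start of Cox7a1 and that of Cox6a1 are shown because these genes carry 2 of the 3 results that pass, and because CLOCK binds E-boxes. The sequences are RefSeq's, with GRCm38.p6 coordinates (250 bases before to 50 after the annotated start), each written 5′ to 3′ in the direction of its gene. Cox7a1 lies at chr7:30183921-30184220 on the plus strand, and its capitals mark the only match to the general E-box CANNTG, 124 bases before the start. Cox6a1 lies at chr5:115348909-115349208 on the minus strand, and its capitals mark the NRF1 core GCGCATGCG, found on both strands and overlapping itself, 162 bases before the start, and the ETS motif CCGGAAG on the opposite strand, 16 bases before it.
Cox7a1: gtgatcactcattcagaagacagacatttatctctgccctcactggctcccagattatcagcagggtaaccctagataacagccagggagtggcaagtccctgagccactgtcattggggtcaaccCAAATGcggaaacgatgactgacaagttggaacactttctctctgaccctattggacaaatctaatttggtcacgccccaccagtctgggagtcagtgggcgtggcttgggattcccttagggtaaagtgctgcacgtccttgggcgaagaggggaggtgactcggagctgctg
Cox6a1: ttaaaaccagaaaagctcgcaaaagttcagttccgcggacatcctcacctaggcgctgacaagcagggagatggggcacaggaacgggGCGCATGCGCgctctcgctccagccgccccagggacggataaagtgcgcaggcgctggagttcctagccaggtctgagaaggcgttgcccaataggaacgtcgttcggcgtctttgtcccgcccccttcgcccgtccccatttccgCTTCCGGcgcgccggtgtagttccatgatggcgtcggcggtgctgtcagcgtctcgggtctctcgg

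Such a window was at hand for 64 of the 78 genes. Both strands were searched, and a gene was counted if any window listed for it held the motif. The canonical E-box CACGTG, the form CLOCK and BMAL1 are known to prefer, was found for 6 of 64 genes (9.38%), against 8.09% of 27025 genes. It is not in the 2 windows shown. The general form CANNTG, which includes every CACGTG, was found for 70.3% of the 64 genes, against 75%. The NRF1 motif, bound by a known activator of respiratory chain genes, was found for 8 of 64 genes (12.5%, against 1.95%). It was searched by a shortened core chosen after a longer form had been counted. The ETS motif, which the GABP factor binds, was found for 17 of 64 genes (26.6%, against 9.93%), and the estrogen-related receptor motif TCAAGGTCA for 2 of 64 (3.12%, against 0.466%). A match describes the letters only.

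Cox7a2, the widely expressed form of subunit VIIa, ran the same way as Cox7a1 with a smaller difference. Its values were -0.013, -0.19, -0.037 and -0.011 in WT SC hearts and 0.0050, -0.10, -0.096 and -0.070 in WT HFD hearts. They were -0.0050, 0.044, 0.14 and 0.029 in Clock SC hearts and 0.055, 0.027, 0.065 and 0.15 in Clock HFD hearts. The groups did not overlap on either diet, and 7 of 8 Clock hearts were above every WT heart.

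Cox7a2 differed by 0.11 ± 0.05 on chow (limma adjusted p = 0.455), by 0.14 ± 0.05 on the high-fat diet (0.2) and by 0.13 ± 0.04 over both diets (0.0547), so it did not pass. It passed the average with array weights (0.0465), with a repeated quantile normalization (0.0453) and without WT HFD replicate 1 (0.0465). Cox7a2l, which encodes a related protein, had 0.023 ± 0.036 over both diets. Of the 3, only Cox7a1 passed; the difference between them was not tested.

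**Figure D3:**
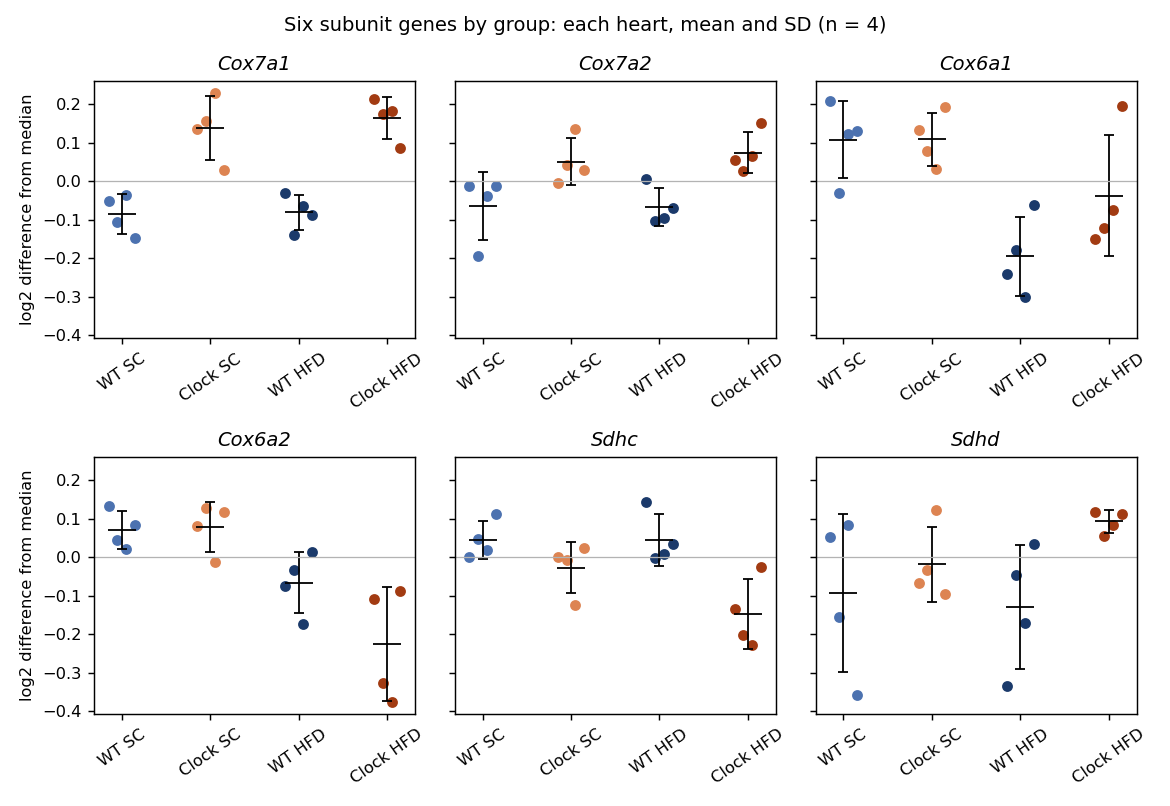
Values of 6 subunit genes (log2 difference from the gene's median, vertical axis) by group, 1 point per heart, with the mean as a bar and the SD as whiskers (n = 4). All 8 Clock hearts lie above all 8 WT hearts for Cox7a1, and both Cox6a genes are lower on the high-fat diet in 7 of 8 hearts than in any chow heart.

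Cox6a2 is the heart and muscle form of subunit VIa, a regulatory subunit of complex IV. It lay at 0.13, 0.045, 0.021 and 0.082 in WT SC hearts and at -0.074, -0.034, -0.17 and 0.014 in WT HFD hearts. It lay at 0.080, 0.13, -0.014 and 0.12 in Clock SC hearts and at -0.11, -0.33, -0.38 and -0.089 in Clock HFD hearts. In each genotype all 4 hearts on the high-fat diet were below all 4 on chow, and the lowest 2 of the 16 were Clock HFD replicates 2 and 3.

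Cox6a2 fell with the high-fat diet by 0.22 ± 0.05 on the log2 scale over both genotypes (1.17-fold, limma adjusted p = 0.0244). The difference was -0.30 ± 0.06 in Clock hearts (adjusted p = 0.0912) and -0.14 ± 0.06 in WT hearts (0.466), and neither passed alone. The interaction, which tests whether the diet differences differ, was -0.17 ± 0.09 (adjusted p = 0.982). The average did not pass without Clock HFD replicate 2 (adjusted p = 0.0515), nor without WT SC replicates 2 and 4 together (-0.22, 0.0847).

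Cox6a1, the widely expressed form, lay at 0.21, -0.031, 0.12 and 0.13 in WT SC hearts and at -0.24, -0.18, -0.30 and -0.060 in WT HFD hearts. In Clock SC hearts it lay at 0.13, 0.078, 0.031 and 0.19, and in Clock HFD hearts at -0.15, -0.12, -0.074 and 0.19. The WT groups did not overlap. In the Clock groups 3 of 4 hearts on the high-fat diet were below every chow heart, and Clock HFD replicate 4 was above all 4.

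Over both genotypes Cox6a1 fell by 0.22 ± 0.05 on the log2 scale (1.17-fold, limma adjusted p = 0.0442), with -0.30 ± 0.07 in WT hearts (adjusted p = 0.099) and -0.15 ± 0.07 in Clock hearts (0.64). This call was the least stable of the 3: with single hearts left out it passed in 3 of 16 fits, with adjusted p from 0.0106 to 0.0932, and the difference stayed between -0.26 and -0.21. Without Clock HFD replicate 4, the difference in WT hearts passed (-0.30, adjusted p = 0.0471).

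Set against the background, 2 of 78 genes (both lower) passed in the diet average, against 1.54% of all genes, 0.726% lower and 0.812% higher. By limma 0 of 78 passed for diet in WT hearts (0.352% of all genes) and 0 of 78 in Clock hearts (0.0902%), with 11 and 9 genes at an unadjusted p under 0.05 (14.1% against 10.7%, and 11.5% against 8.42%). The medians were -0.00071 in WT and 0.0060 in Clock hearts, with 39 and 43 of 78 genes positive. By complex, the diet medians of complex III were 0.065 in WT and 0.11 in Clock hearts, and those of the ATP synthase -0.015 and -0.0076. For complex III they were 0.0083 in WT hearts without WT SC replicate 2, -0.028 without WT SC replicates 2 and 4, and 0.044 in Clock hearts without Clock SC replicate 4.

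**Figure D4:**
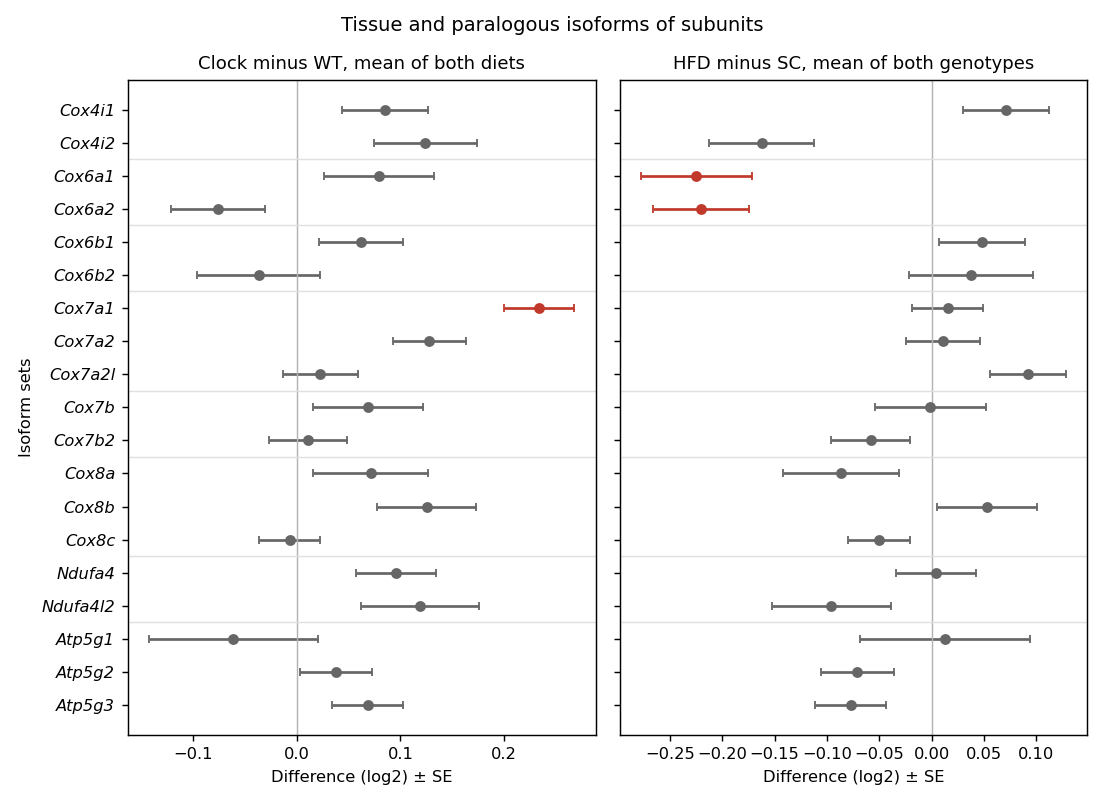
Differences (log2, horizontal axis, ± SE of the fit over 16 hearts) of the 19 genes in isoform sets, for genotype (left) and diet (right). Red marks the 3 values with an adjusted p under 0.05: Cox7a1 for genotype, and Cox6a1 and Cox6a2 for diet.

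The other complex IV isoforms did not pass in any comparison. Cox4i2, the form of subunit IV known from hypoxia and from perivascular cells, lay at 0.24, 0.14, 0.17 and 0.16 in Clock SC hearts and at -0.021, -0.15, -0.084 and 0.055 in Clock HFD hearts. These groups did not overlap (-0.23 ± 0.07, limma adjusted p = 0.324). In WT hearts it ranged from -0.14 to 0.18 on chow and from -0.20 to 0.021 on the high-fat diet, and those groups overlapped. The common form Cox4i1 had 0.085 ± 0.041 for genotype and 0.071 ± 0.041 for diet, each over the other factor.

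Ndufa4l2, a paralog of Ndufa4 that is also known from hypoxia and mural cells, had a genotype difference of 0.19 ± 0.08 on chow (limma adjusted p = 0.441) and a diet difference of -0.17 ± 0.08 in Clock hearts (0.605). Beside Cox4i2 and Ndufa4l2, the 12 pericyte and smooth muscle markers had a median Clock minus WT difference of 0.14 on chow and of 0.070 on the high-fat diet. Their mean over the list ranged from -0.035 to -0.0012 in WT SC, from -0.015 to 0.11 in Clock SC, from -0.092 to 0.022 in WT HFD and from -0.049 to 0.11 in Clock HFD hearts. Among them Abcc9 fell in Clock hearts on chow (-0.33 ± 0.06, adjusted p = 0.0314) and on the high-fat diet (-0.36 ± 0.06, adjusted p = 0.00738), and no other passed on a single diet. Of all genes 0.252% passed as lower on chow and 0.771% on the high-fat diet. Most of the list ran the other way, with 9 of 12 positive on each diet. Over both diets Vtn rose (0.36 ± 0.08, adjusted p = 0.0169) and Abcc9 fell (-0.34 ± 0.05, 0.000377), against 2.44% of all genes higher and 1.44% lower. The part of these cells in the values of Cox4i2 and Ndufa4l2 was not tested.

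Cox8b, the heart and muscle form of subunit VIII in mice, had 0.13 ± 0.05 for genotype over both diets (limma adjusted p = 0.179), and the common form Cox8a had 0.071 ± 0.055 (0.592). Cox8c, known from testis, had -0.0067 ± 0.030. Cox6b1 had 0.062 ± 0.041 and its testis form Cox6b2 -0.037 ± 0.059. Cox7b had 0.069 ± 0.053 and Cox7b2 0.011 ± 0.038. The heart forms of subunits VIIa and VIII thus had larger positive differences than their common forms while that of subunit VIa had a negative one (Cox6a2, -0.076 ± 0.046), but apart from Cox7a1 none passed and the differences between forms were not tested.

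In complex II the 4 subunits did not run together. Sdhc, a membrane anchor, was at 0.00073, 0.047, 0.017 and 0.11 in WT SC hearts and at 0.14, -0.0036, 0.0070 and 0.035 in WT HFD hearts. It was at -0.00073, -0.0071, -0.13 and 0.023 in Clock SC hearts and at -0.13, -0.20, -0.23 and -0.025 in Clock HFD hearts. All 4 Clock HFD hearts were below all 4 WT HFD hearts, while the chow groups overlapped.

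Sdhd, the partner of Sdhc in the membrane anchor, had the opposite order on the high-fat diet. It was at 0.12, 0.056, 0.083 and 0.11 in Clock HFD hearts and at -0.33, -0.046, -0.17 and 0.033 in WT HFD hearts. The Clock HFD hearts were all above the WT HFD hearts and lay close together, whereas the WT hearts spread widely. On chow Sdhd ranged from -0.36 to 0.084 in WT and from -0.096 to 0.12 in Clock hearts.

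On the high-fat diet the Clock minus WT difference was -0.19 ± 0.05 for Sdhc (limma adjusted p = 0.0801) and 0.22 ± 0.09 for Sdhd (0.277), so neither passed. Without Clock HFD replicate 4, Sdhc had -0.23 and passed (adjusted p = 0.0376). Over both diets Sdhc had -0.13 ± 0.04 (0.06). The catalytic subunits Sdha, which holds the flavin, and Sdhb, which holds the iron-sulfur clusters, had 0.040 ± 0.056 and 0.025 ± 0.062 on the high-fat diet. For diet over both genotypes Sdha had 0.11 ± 0.04 (0.192) and Sdhb 0.10 ± 0.04 (0.318).

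Complex III had the highest share of separated groups on the high-fat diet, where 4 of its 7 genes (57.1%) had all Clock hearts above all WT hearts: Uqcrfs1, Uqcrq, Uqcr11 and Uqcrc1. Over the 78 genes it was 14 (17.9%, 13 higher and 1 lower), and over all genes 8.89%, 5.09% higher and 3.8% lower. The mean over the 7 genes was 0.050, 0.054, 0.067 and 0.11 in Clock HFD hearts and -0.013, -0.013, -0.032 and 0.0086 in WT HFD hearts. On chow it was -0.047, -0.15, -0.0049 and -0.10 in WT hearts and 0.027, 0.021, 0.055 and -0.11 in Clock hearts, and these overlapped through Clock SC replicate 4.

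Uqcrfs1, the Rieske iron-sulfur protein, lay at 0.14, 0.16, 0.10 and 0.089 in Clock HFD hearts and at -0.24, -0.042, -0.091 and 0.066 in WT HFD hearts. The groups did not overlap, with 0.20 ± 0.07 (limma adjusted p = 0.178). On chow the difference was 0.033 ± 0.067, and the interaction was 0.165 ± 0.095 (0.982). The core subunits Uqcrc1 and Uqcrc2 had 0.16 ± 0.09 and 0.063 ± 0.042 on the high-fat diet, of which the first leaned on Clock HFD replicate 4 (0.29, where the others were 0.026 to 0.065).

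Uqcrq, a small subunit of complex III, had positive differences in all 4 comparisons of single groups. It lay at -0.091, -0.16, -0.11 and -0.21 in WT SC hearts and at 0.037, -0.012, 0.0098 and -0.0098 in WT HFD hearts. It lay at 0.097, -0.038, 0.12 and -0.15 in Clock SC hearts and at 0.052, 0.090, 0.092 and 0.24 in Clock HFD hearts. The WT SC hearts were below every heart on the high-fat diet.

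For genotype over both diets Uqcrq had 0.13 ± 0.04 (limma adjusted p = 0.0935), and for diet over both genotypes 0.13 ± 0.04 (0.136). Without Clock SC replicate 4 the genotype average passed (0.16, adjusted p = 0.0232). Uqcrb, a subunit that binds ubiquinone, had all 4 WT HFD hearts (0.17, -0.0036, 0.081 and 0.12) above all 4 WT SC hearts (-0.14, -0.13, -0.062 and -0.0068). That difference was 0.18 ± 0.05 (0.139), the corresponding one in Clock hearts was 0.0020 ± 0.049, and the interaction of -0.18 ± 0.07 did not pass (0.935).

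In complex I 0 of 33 genes passed in any of the 7 comparisons by limma, with up to 9 at an unadjusted p under 0.05 (27.3%, for genotype over both diets, against 16.5% of all genes). Ndufv1, the core subunit that takes electrons from NADH, had 0.12 ± 0.05 for genotype over both diets (limma adjusted p = 0.189), with 7 of 8 Clock hearts above every WT heart. Without Clock SC replicate 4, the lone Clock heart that was not, this passed (0.16, adjusted p = 0.0242). Ndufs1, the largest core subunit, had 0.064 ± 0.037 for genotype and 0.13 ± 0.04 for diet (0.0922).

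Accessory subunits had the smallest p of complex I in each comparison of single groups. On chow Ndufa1 had 0.17 ± 0.05 (limma adjusted p = 0.224) and Ndufb11 0.23 ± 0.08 (0.314), with no overlap of the groups for the latter. Ndufb11 lay at -0.24, -0.35, -0.10 and -0.11 in WT SC hearts and at 0.055, -0.068, 0.13 and 0.013 in Clock SC hearts. Ndufb5 had 0.16 ± 0.06 on the high-fat diet (0.199). Ndufa8 was lower on the high-fat diet by 0.18 ± 0.05 over both genotypes without passing (0.0594), and its 2 probe sets agreed only in part (r = 0.603 over the 16 hearts, as a description). In Clock hearts Ndufa2 had 0.18 ± 0.06 for diet (0.353), with all 4 hearts on the high-fat diet above all 4 on chow.

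In the ATP synthase 0 of 17 genes passed in any comparison by limma, with up to 3 at an unadjusted p under 0.05 (17.6%, for genotype over both diets, against 16.5% of all genes). Atp5a1 and Atp5b, of the catalytic head, had 0.080 ± 0.037 (limma adjusted p = 0.289) and 0.035 ± 0.031 (0.657) for genotype over both diets. The gamma subunit Atp5c1, the rotor shaft, had 0.096 ± 0.070 and passed without WT HFD replicate 3 (0.16, adjusted p = 0.0442), the heart with its highest value. Atp5o, of the stalk that holds the catalytic head, had -0.15 ± 0.09 on chow and 0.093 ± 0.085 on the high-fat diet, with an interaction of 0.24 ± 0.12 (0.982). Atp5mpl, a small membrane subunit, had 0.12 ± 0.04 over both diets (0.117), and passed without Clock SC replicate 4 (0.14, adjusted p = 0.0463).

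The proton-carrying c subunit of the ATP synthase is made from 3 genes that encode the same mature protein. For genotype over both diets Atp5g1 had -0.061 ± 0.081, Atp5g2 0.038 ± 0.035 and Atp5g3 0.068 ± 0.034. For diet Atp5g2 had -0.071 ± 0.035 and Atp5g3 -0.077 ± 0.034 (limma adjusted p = 0.409 and 0.333). Atp5h, of the peripheral stalk, had -0.15 ± 0.06 for diet in WT hearts (0.309) and 0.12 ± 0.06 for genotype on the high-fat diet (0.342); these comparisons share the WT HFD hearts.

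Separation of single groups was counted over the whole set too. On chow 6 of 78 genes (7.69%, all higher in Clock hearts) did not overlap between genotypes, against 4.95% of all genes, 2.58% higher and 2.38% lower. Cox7a1 and Cox7a2 were the only 2 of the 78 that were higher without overlap on both diets. For diet 5 of 78 did not overlap in WT hearts (3 higher and 2 lower, 6.41%), against 5.3% of all genes, 2.8% higher and 2.5% lower. In Clock hearts it was 6 of 78 (3 each way, 7.69%), against 5.31%, 2.89% higher and 2.42% lower. Cox6a2 was lower without overlap in both genotypes.

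The interaction of genotype and diet gave 0 of 78 subunit genes and 0% of all genes by limma. At an unadjusted p under 0.05 there were 2, Uqcrb and Ndufa1 (2.56%, against 5.06% of all genes). The design has 4 hearts in each group, and the standard errors of the subunit genes' interaction terms ran from 0.055 upward, which limits the differences that could be detected.

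**Figure D5:**
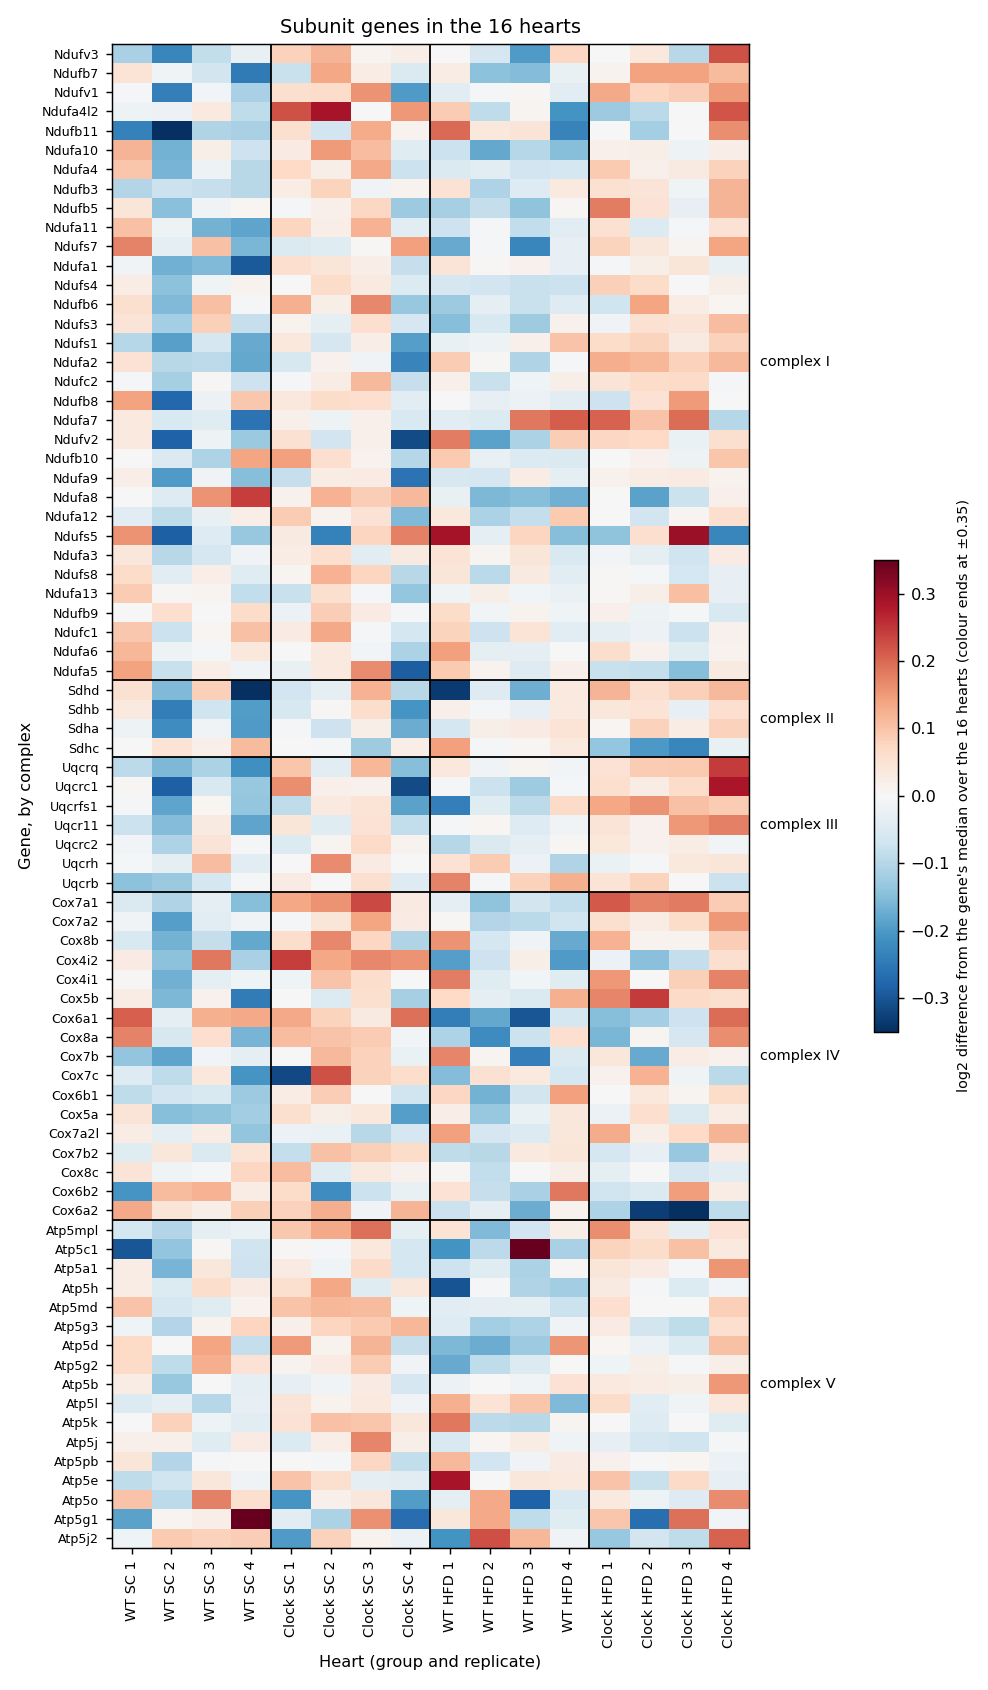
Values of all 78 subunit genes (rows, by complex and ordered within each by the genotype average) in the 16 hearts (columns), as colour for the log2 difference from the gene's median, with values past 0.35 shown at the end of the scale. WT SC replicate 2 is blue for most rows (10 of 78 genes above their median), Clock SC replicate 3 mostly red (65 of 78), and Cox7a1, first in complex IV, is blue in all 8 WT and red in all 8 Clock hearts.

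Genes that build or feed the chain were read from lists that overlap little with the subunits. Of 22 complex IV assembly factors 2 rose in Clock hearts on the high-fat diet, both small cysteine-rich mitochondrial proteins: Cox19 (0.35 ± 0.08, limma adjusted p = 0.0342) and Cmc2 (0.31 ± 0.06, 0.0198). Of all genes, 1.13% passed as higher on that diet and 50.2% were positive. The complex IV list had a median of 0.076 there with 18 of 22 positive. Of 13 assembly factors of complexes II, III and V none passed there and all 13 were positive (median 0.11), and over both diets Uqcc2, a complex III factor, rose (0.20 ± 0.05, 0.0243). Of 15 complex I assembly factors none passed on the high-fat diet (14 positive, median 0.092). On chow 16 of 22 complex IV factors were positive (median 0.032), and 11 of 13 for complexes II, III and V (0.054). For complex I it was 9 of 15 (0.0080), against 49.8% of all genes.

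In the coenzyme Q list of 12 genes, Coq10b, a coenzyme Q binding protein, fell in Clock hearts on chow (-0.75 ± 0.13, limma adjusted p = 0.0146) and on the high-fat diet (-0.91 ± 0.13, 0.00117). Over both diets its paralog Coq10a rose (0.19 ± 0.05, 0.0316), and so did Coq8a (0.27 ± 0.05, 0.00827). Of 13 tricarboxylic acid cycle enzymes Idh2 fell on the high-fat diet (-0.31 ± 0.07, 0.035) and over both diets (-0.28 ± 0.05, 0.00368), while over both Ogdh (0.17 ± 0.04, 0.0344) and Suclg2 (0.18 ± 0.04, 0.0155) rose. Of 22 regulators of mitochondrial biogenesis only Ppara, the fatty acid receptor, rose over both diets (0.24 ± 0.05, 0.016). Of all genes, 2.44% passed as higher and 1.44% as lower over both diets. Ppargc1a, the coactivator that drives respiratory chain genes, had -0.063 ± 0.060 and its partner Esrra 0.042 ± 0.051. By direction, 12 of 13 tricarboxylic acid cycle enzymes were positive on chow (median 0.079) and 11 of 13 on the high-fat diet (0.042). For coenzyme Q it was 8 of 12 (0.059) and 9 of 12 (0.135), and for the regulators 14 of 22 (0.033) and 12 of 22 (0.012). Of all genes 49.8% and 50.2% were positive.

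For diet over both genotypes, 3 of 16 other chain components rose: Etfa, Etfb and Etfdh, which bring electrons from fatty acid oxidation to coenzyme Q (0.14 ± 0.03, 0.195 ± 0.041 and 0.17 ± 0.03, with limma adjusted p = 0.0394, 0.0244 and 0.00521). Of all genes 0.812% passed as higher and 0.726% as lower for diet over both genotypes. Atpif1, the inhibitor of the ATP synthase, fell by 0.20 ± 0.05 (0.0442), and Higd2a, a complex IV assembly factor, fell by 0.28 ± 0.06 (0.0242). Suclg1 and Suclg2, of the succinyl-CoA ligase, rose (0.17 ± 0.04, 0.0459, and 0.19 ± 0.04, 0.0234). Cyc1, the cytochrome of complex III that falls outside the symbol rule, had 0.15 ± 0.04 for genotype over both diets (0.0591). Cycs, cytochrome c, had -0.092 ± 0.042 (0.279).

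Markers of other cells also moved with genotype and diet. Of 12 endothelial markers 4 rose in Clock hearts on the high-fat diet, led by Cldn5 (1.21 ± 0.17, limma adjusted p = 0.00089). Of all genes 1.13% passed as higher there. Over both diets 6 of 12 rose, against 2.44% of all genes. For diet Cldn5 fell in WT hearts (-0.81 ± 0.17, 0.0482), and Kdr, Emcn and Egfl7 fell over both genotypes (-0.24 ± 0.05, -0.21 ± 0.05 and -0.20 ± 0.04, with adjusted p = 0.0254, 0.0298 and 0.0259). Of all genes 0.167% passed as lower for diet in WT hearts and 0.726% over both genotypes. The mean over the endothelial list ranged from -0.24 to -0.17 in WT HFD and from -0.036 to 0.155 in Clock HFD hearts, without overlap, and from -0.072 to 0.038 in WT SC and from 0.035 to 0.15 in Clock SC hearts. Of 12 fibroblast markers 4 rose in Clock hearts over both diets, against the same 2.44% of all genes. With diet over both genotypes 1, Postn, rose (0.34 ± 0.07, adjusted p = 0.0227), against 0.812% of all genes. The fibroblast list mean ranged from -0.23 to -0.062 in WT SC and from -0.017 to 0.087 in Clock SC hearts. It ranged from -0.17 to 0.14 in WT HFD and from -0.073 to 0.23 in Clock HFD hearts. Of 6 atrial markers none passed, and their mean was 0.11 to 0.18 in WT SC, -0.22 to 0.10 in Clock SC, -0.12 to 0.11 in WT HFD and -0.10 to -0.020 in Clock HFD hearts. On chow that mean turned on Nppa (-1 ± 0.33, adjusted p = 0.253), while the median difference of the 6 was -0.036.

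Cox7a1 and Cox8b are also known as marker genes of brown fat, so those markers were read beside them. Of 8 brown fat markers 1, Ppara, which the heart also expresses, rose in Clock hearts over both diets, against 2.44% of all genes. In the same comparison Ucp1 had -0.011 ± 0.036 and Cidea 0.055 ± 0.064. For diet Cidea rose (0.33 ± 0.06, limma adjusted p = 0.0172), and the list mean ranged from -0.11 to -0.063 in WT SC, -0.053 to 0.018 in Clock SC, -0.021 to 0.065 in WT HFD and 0.018 to 0.033 in Clock HFD hearts. Of 7 adipocyte, 9 skeletal muscle and 12 leukocyte markers none passed in any of the 7 comparisons, and 1 of 6 erythroid markers was measured. The mean of the skeletal muscle list ranged from 0.016 to 0.075 in WT SC, -0.022 to 0.067 in Clock SC, -0.068 to 0.017 in WT HFD and -0.054 to 0.021 in Clock HFD hearts. The part of these cells in the values of the subunit genes was not tested.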

How the data were processed

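The authors deposited log values of 34351 probe sets, each centred on its median across 16 arrays, which were read as log2 with positive as higher by assumption. Log base, sign, background correction and normalization: not given in the sources used here. Probe sets with 1 symbol (23521) were averaged per gene to 22180 genes; those with several (1814) or none (9016) were left out. All 78 members matched RefSeq by gene ID.

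Genes were fitted with limma 3.58.1 (R 4.3.3), a mean for every group (12 residual, 4.16 prior degrees of freedom), two-sided moderated tests and Benjamini-Hochberg adjustment over all genes, in 7 comparisons. The labels number mice as biological replicates, 1 array each; this number limits precision. The fit was tested on simulated data.

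The members, lists and rules were chosen with earlier results of these data known. Named were members past the threshold, isoform sets, core subunits and passing genes of each list. Also named, per comparison of single groups, were the smallest p of each complex and the 2 highest and 2 lowest differences. Others named (Uqcr11 and the like, and genes passing only in other settings) were chosen after their values were seen. Other settings tried were shared probe sets, the most variable probe set, trend and robust moderation, array weights, repeated quantile normalization, array centring, fits of just the 8 arrays at issue, a block for replicate number, and omitted arrays.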

Additional observations from a re-analysis of the deposited data

Results flagged for a closer look

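Among 184 groups of 4 values examined (41 named genes and the 5 complex means), 8 held a heart far from the other 3, and chance alone marks about 1 in 20 such groups. In Clock HFD replicate 4, Uqcrc1 was 0.287 where the other 3 hearts were 0.0262 to 0.0653, Atp5b was 0.151 (others 0.0214 to 0.0345), and the mean of complex I was 0.0481 (others 0.0195 to 0.0235). In WT HFD replicate 1, Cox4i1 was 0.18 (others -0.0419 to -0.00832) and Ndufa8 was -0.0269 (others -0.168 to -0.148). Cox7a2 was -0.193 in WT SC replicate 2 (others -0.0374 to -0.0112), which is the heart with the fewest subunit genes above their medians. Cox8a was -0.0108 in Clock SC replicate 4 (others 0.0895 to 0.109). Cox7b was -0.175 in Clock HFD replicate 2 (others 0.0152 to 0.0407), and its 2 probe sets ran against each other over the 16 hearts (r = -0.386, as a description).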

How the results depend on the processing

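Of the other settings tried, none reversed the sign of a single-gene difference that was followed across them. Medians over a complex were less steady. Without WT SC replicates 2 and 4, complex III changed sign for genotype on chow and for diet in WT hearts. Clock SC replicate 4, also low for complex III (mean -0.109), was kept in that chow comparison. Cox7a1 passed in every setting for the high-fat diet and the average. For genotype on chow the count of members passing was 0; it was 1 (Cox7a1) with array weights (0.23, adjusted p = 0.0363) and with the replicate block (0.0403), and 0 to 1 with single hearts left out. For genotype over both diets (main count 1) it was 3 with array weights (Cox7a2 and Sdhc added), 2 with repeated quantile normalization (Cox7a2), 2 with the replicate block (Sdhc, adjusted p = 0.0467), and 1 to 4 with single hearts left out. On the high-fat diet it was 1 to 2, and for diet in WT hearts 0 to 1, with single hearts left out. For diet over both genotypes (main count 2) it was 0 to 3 with single hearts left out, 0 without WT SC replicates 2 and 4 (Cox6a1 adjusted p = 0.0688) and 0 without those and Clock SC replicate 4, a setting chosen after seeing the data (Cox6a2 adjusted p = 0.125, Cox6a1 0.109); these fits have fewer samples, and otherwise the cause was not tested. With the most variable probe set of each gene, the WT HFD mean of complex V was -0.0311, against -0.0228. Replicate numbers did not pair the hearts: same-numbered hearts correlated at -0.149 to 0.163 (median -0.0202, 3 of 24 pairs over 0.1). No filter on dim genes was run, since centred values hold no levels; signal over background is unknown.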
